A study of Neocallimastix californiae and Anaeromyces robustus with 43 samples.

Results

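In the anaerobic gut fungus Neocallimastix californiae, 120 of 29649 transcripts formed a common core that was higher on cellobiose, cellulose and every plant material than on glucose or maltose. They were chosen from TPM, the number of transcripts per 1000000, a measure of level corrected for transcript length and library size. For each transcript the median TPM on each carbon source was taken, H was the lowest median among cellobiose, Avicel, reed canary grass, switchgrass, corn stover and alfalfa stems, and L was the higher of the glucose and maltose medians. Transcripts were kept where H was at least 5 TPM, where the highest of the 6 medians was at most 3 times the lowest, and where the score, log2((H + 1)/(L + 1)), was above 0. Of the 29649 transcripts, 3474 met the level, 2519 of those met the range and 263 of those had a score above 0, and the 120 highest scores were taken. Since these values chose the members, the difference from glucose and maltose is described below without a test.

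The study grew 2 gut fungi, N. californiae (labelled G1) and Anaeromyces robustus (labelled S4), on different carbon sources and sequenced messenger RNA from whole cultures harvested in exponential growth. The N. californiae samples are 23 libraries on 8 carbon sources, with 3 libraries each on glucose, maltose, cellobiose, Avicel, reed canary grass, corn stover and alfalfa stems and 2 on switchgrass. All groups shared the same basal medium, Medium C, the same growth temperature and the same RNA and library kits, and differed by label in the carbon source alone. The labels name no genotype, host animal or separate inoculum, so the replicates may share a culture stock, and p-values below measure the spread between libraries.

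Glucose is the monomer of cellulose, and maltose is a glucose disaccharide with the alpha linkage of starch. Cellobiose joins its glucose units by the beta bond found in cellulose, Avicel is a microcrystalline form of that polymer, and the grasses and alfalfa stems are plant cell wall materials in which cellulose stands beside hemicellulose, pectin and lignin. Gut fungi secrete many enzymes against these polymers, part of them in large complexes called cellulosomes, and in many filamentous fungi genes for such enzymes are low on glucose and rise on cellulose or on the sugars released from it. The files pair no transcript with a gene name, a function or a sequence, so the name of the core stands for its pattern over carbon sources, and no role is given for any member.

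The libraries held between 2583040 and 10816458 estimated read counts (median 4560473). By rank correlation over the 14800 transcripts that passed the filter on low counts, glucose and maltose libraries were partly mixed, and so were the grass libraries. Some, such as glucose replicate 2 and corn stover replicate 2, were closest to a library of their own group. Reed canary grass replicate 1 reached at most 0.915 within its group and 0.925 with switchgrass replicate 1. Cellobiose replicate 3 stood apart from its group: it reached at most 0.890 with the other cellobiose libraries and 0.916 with alfalfa stems replicate 3. All 120 members passed the filter.

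The core took up a larger share of the transcripts on every beta-linked and plant substrate than on glucose and maltose. Its summed TPM was 2.24% ± 0.553 of the library on glucose and 2.12% ± 0.294 on maltose (SD, n = 3 each). It was 5.12% ± 0.540 on cellobiose, 6.21% ± 0.128 on Avicel, 4.66% ± 0.178 on reed canary grass, 4.65% ± 0.545 on corn stover (n = 3 each) and 5.05% ± 0.561 on switchgrass (n = 2). Alfalfa stems gave the highest share, with 6.70%, 6.40% and 6.72% in the 3 libraries. Glucose replicate 3 was the highest of the glucose and maltose libraries at 2.87%, against 1.94% and 1.90% in the other glucose libraries, and the lowest library on the other 6 carbon sources was corn stover replicate 3 at 4.09%. Cellobiose replicate 3 lay within its group, at 5.39% against 4.50% and 5.47%.

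**Figure D1:**
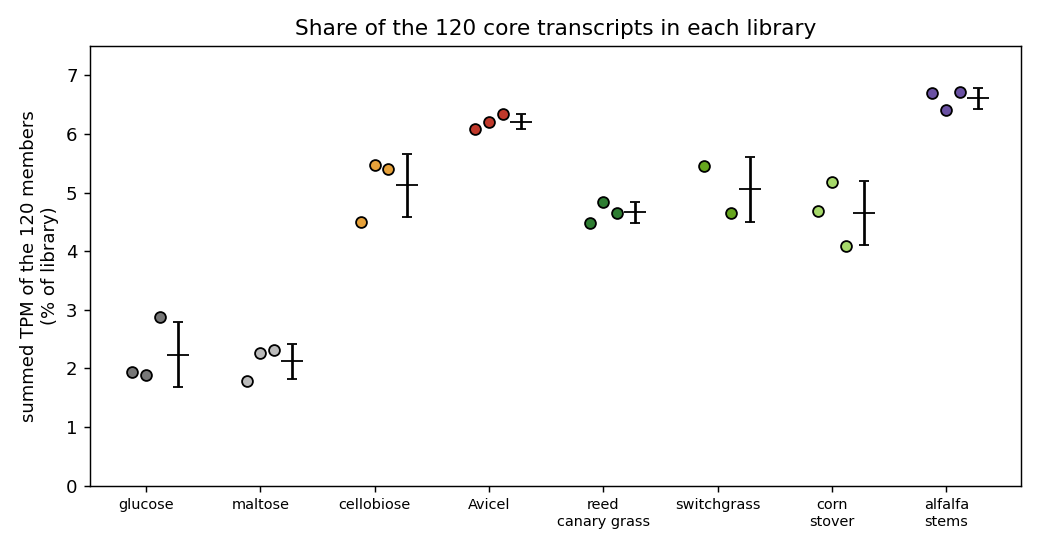
Summed TPM of the 120 core transcripts as a percentage of each library (vertical axis) on the 8 carbon sources, with 1 point per library and the mean ± SD beside the points. The 6 glucose and maltose libraries lie between 1.79% and 2.87%, and the 17 others between 4.09% and 6.72%.

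A pair of transcripts supplied about as much of this sum as all the others together. Without Locus57v1rpkm3974.36 and Locus35v1rpkm4979.72, the remaining members made up 1.07% of the library on glucose and 1.08% on maltose, and 2.65% on cellobiose, 3.35% on Avicel, 2.38% on reed canary grass, 2.72% on switchgrass, 2.40% on corn stover and 3.54% on alfalfa stems, as means. The choice of members fixes the direction of this difference, so only its size is described. As a share of read counts, which favours long transcripts, the whole core was 2.43% on glucose and 2.28% on maltose, against 6.04% to 8.17% on the other 6.

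The member with the highest score was Locus340v1rpkm665.39. It stood at 37.5, 43.5 and 15.9 TPM in the glucose libraries and at 64.4, 41.3 and 26.0 TPM in the maltose libraries. It was at 420.5, 563 and 312 TPM on cellobiose, 889, 895 and 839.5 TPM on Avicel and 723, 594 and 699.9 TPM on alfalfa stems, and its 8 grass libraries ran from 582 to 777 TPM (median 648). The lowest of these 17 libraries, cellobiose replicate 3, was thus well above the highest glucose and maltose library, maltose replicate 1. The score of 3.32 is a ratio of 9.96 between H + 1 and L + 1, and without cellobiose replicate 3 the score was 3.54.

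Locus3104v1rpkm23.73 had nearly the same score, 3.23, at a lower level. It stayed at 2.28, 2.10 and 1.98 TPM on glucose and at 2.12, 1.97 and 2.16 TPM on maltose, so the glucose and maltose libraries hardly differed. On cellobiose it reached 28.4, 39.9 and 20.6 TPM, on Avicel 62.2, 58.4 and 54.0 TPM, and on alfalfa stems 49.1, 31.6 and 54.7 TPM. The grass libraries spanned 30.9 to 73.9 TPM (median 49.7), and cellobiose replicate 3 was again the lowest of the 17, without which the score was 3.48.

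The other members among the 5 highest scores differed in where they peaked. Locus2809v1rpkm27.90, with a score of 2.46, was at 6.93, 6.92 and 13.1 TPM on glucose and 6.09, 8.02 and 7.56 TPM on maltose. Its lowest library on the other substrates was cellobiose replicate 3 at 39.6 TPM, and its highest was switchgrass replicate 1 at 79.8 TPM. Glucose replicate 3 was the highest glucose and maltose library for this transcript.

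Locus1112v1rpkm107.66, with a score of 2.39, was highest on alfalfa stems. It was at 17.5, 12.2 and 17.8 TPM on glucose and 8.11, 9.71 and 11.3 TPM on maltose. It reached 213, 155 and 215 TPM on alfalfa stems, 98.3, 112 and 129 TPM on cellobiose and 134, 155 and 125 TPM on Avicel, with 75.9 to 132 TPM in the 8 grass libraries (median 99.5). Alfalfa stems replicates 1 and 3 were above every other library, while replicate 2 was level with Avicel replicate 2.

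Locus284v1rpkm843.71, with a score of 2.32, was the most abundant of these 5 and peaked on Avicel. Its glucose libraries held 157, 142 and 189 TPM and its maltose libraries 157, 164 and 172 TPM. On Avicel it reached 1789, 1908 and 1788 TPM, against 823, 1079.8 and 713 TPM on cellobiose, 1286, 1024 and 1235 TPM on alfalfa stems and 814 to 1116 TPM on the grasses (median 947). The Avicel libraries did not overlap with any other group.

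**Figure D2:**
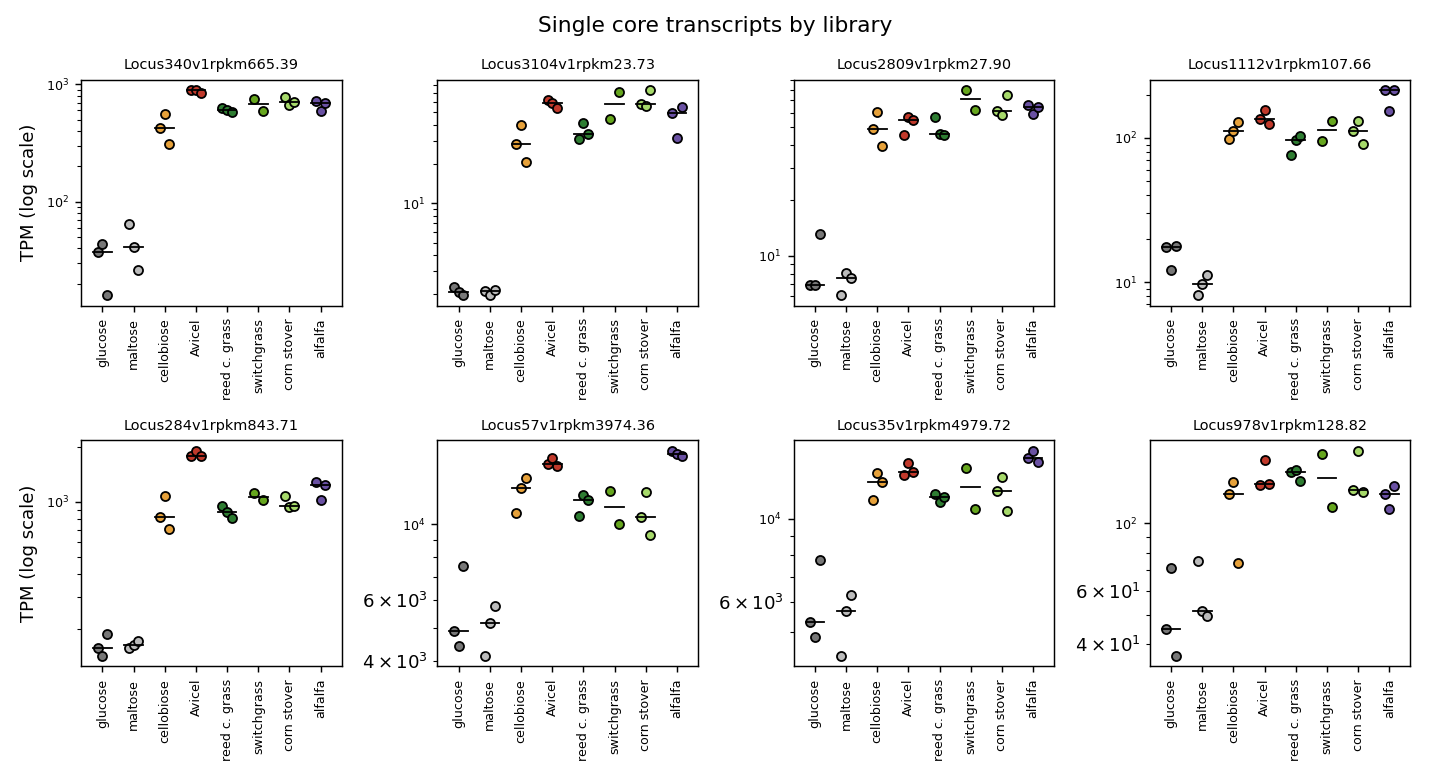
TPM per library on a log axis for the 5 core transcripts with the highest scores, the 2 most abundant members and the member with the narrowest range, with 1 point per library and a line at the median of each carbon source. The glucose and maltose points lie below the others in every panel except that of Locus978v1rpkm128.82, where cellobiose replicate 3 lies at the glucose and maltose level, at 74.2 TPM against 75.3 TPM in maltose replicate 1.

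The rest of the 10 highest scores were mostly transcripts of low level that were close to absent on glucose and maltose. Locus7126v1rpkm6.07 had a median of 0.46 TPM on both glucose and maltose and medians from 5.82 TPM on cellobiose to 13.5 TPM on alfalfa stems. Locus5848v1rpkm8.57 had medians of 1.23 TPM on glucose, 0.58 TPM on maltose and 9.35 to 23.5 TPM on the 6 substrates, with the highest on Avicel. Locus3919v1rpkm16.49 had medians of 0.70 TPM on glucose, 1.13 TPM on maltose and 6.30 to 15.1 TPM on the others. At these levels the added 1 TPM lowers the score, so their scores of 2.22, 2.21 and 1.78 understate the ratios.

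Locus1833v1rpkm51.26 had medians of 9.91 TPM on glucose, 8.46 TPM on maltose and 48.4 to 80.3 TPM on the 6 substrates (score 2.18). Locus187v7rpkm0.00_PRE, with a score of 1.82, was the only one of the 10 whose libraries overlapped between the 2 sides. It was at 20.5, 31.4 and 58.5 TPM on glucose and at 2.20, 44.8 and 26.1 TPM on maltose. Reed canary grass replicate 1 held 55.6 TPM and corn stover replicate 3 held 60.6 TPM, while the alfalfa stem libraries held 334, 364 and 305 TPM.

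The most abundant members differed less than those with the highest scores. Locus57v1rpkm3974.36 was at 4875, 4432 and 7562 TPM on glucose and 4138, 5155 and 5798 TPM on maltose. It reached 10799, 12739 and 13579 TPM on cellobiose, 14991, 15547 and 14711 TPM on Avicel and 16329, 15964 and 15716 TPM on alfalfa stems, and the 8 grass libraries held 9265 to 12463 TPM (median 11128). No library of the 17 was as low as glucose replicate 3, the highest on glucose and maltose, and the score was 1.02.

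Locus35v1rpkm4979.72 followed at similar levels and with a flatter pattern. Its glucose libraries held 5333, 4842 and 7790.2 TPM and its maltose libraries 4318, 5695 and 6284 TPM. The 17 other libraries ran from 10510.1 TPM in corn stover replicate 3 to 15169 TPM in alfalfa stems replicate 2. Its 6 medians lay within a ratio of 1.27, one of the narrowest in the core, and its score was 1.00.

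Locus29152v1rpkm0.00, Locus610v1rpkm268.86 and Locus9v1rpkm7596.83 completed the 5 most abundant. Locus29152v1rpkm0.00 (score 0.86) had medians of 856 TPM on glucose and 1084 TPM on maltose and medians from 1974 TPM on corn stover to 5589 TPM on Avicel. Locus610v1rpkm268.86 (score 0.50) was at 1199.9, 1174 and 1969 TPM on glucose, and its lowest libraries on plant material, 1804 TPM in corn stover replicate 3 and 1897 TPM in reed canary grass replicate 3, fell below glucose replicate 3. Locus9v1rpkm7596.83 (score 0.66) likewise overlapped, with 825 TPM in glucose replicate 3 and 761 TPM in cellobiose replicate 1.

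Over the whole core the score had a median of 0.74 and ran from 0.33 to 3.32, and it was at least 2 in 8 members, at least 1 in 37 and under 0.5 in 31. The mean of the 6 substrate medians had a median of 71.6 TPM and ran from 6.30 to 12851 TPM, with 9 members at 1000 TPM or more, 52 at 100 TPM or more and 32 under 20 TPM. Glucose gave the higher of the glucose and maltose medians in 54 members and maltose in 66.

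**Figure D3:**
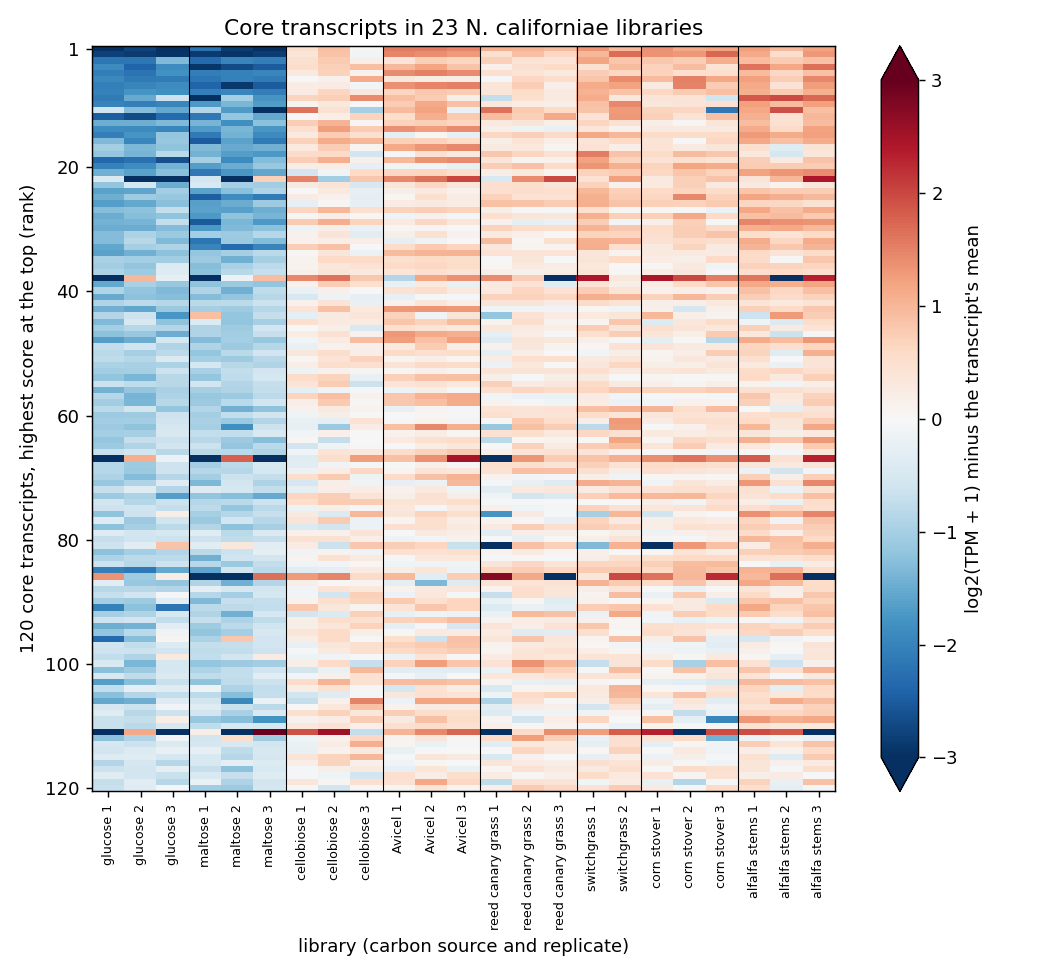
Each row is 1 of the 120 core transcripts, ordered by score, and each column is 1 of the 23 libraries. Colour is log2(TPM + 1) minus the mean of that transcript over all libraries, from -3 to 3. The glucose and maltose columns are low from top to bottom and paler towards the lower scores. Short transcripts with a count of 0 in some libraries make up 6 scattered rows. Locus3113v1rpkm23.63, which is not short, also had a count of 0 in some libraries.

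In 80 of the 120 members every one of the 17 libraries on cellobiose, Avicel, grasses and alfalfa stems was above every one of the 6 glucose and maltose libraries. Among the 3474 transcripts with H of at least 5 TPM, 4.15% showed such a separation; the choice of members fixes this contrast, so nothing is read from the difference. In the other 40 members at least 1 library crossed over. Without cellobiose replicate 3 the separated members numbered 83. With TPM divided by TMM scaling factors the separated members numbered 92, and all 120 kept the lowest of the 6 medians above both glucose and maltose medians. Those factors were 1.13 to 1.43 in the glucose and maltose libraries and 0.636 to 1.22 in the 17 others. Dividing by them mostly widens this gap for every transcript, so nothing is read from the rise.

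The pattern was also read in libraries that took no part in choosing. When the 120 transcripts were chosen again without 1 library, 106 to 120 of them (median 117) were above L in the omitted library where that came from the 6 substrates. Among transcripts with H of at least 5 TPM, 24.7% to 47.0% were above L in the same libraries. Where the omitted library was glucose or maltose, 106 to 117 of the 120 (median 115) were below H in it, against 13.2% to 18.6% of those transcripts. The score of those transcripts had a median of -0.91, so most had L above H and a gap to the members is built in. Other libraries on the same carbon source also took part in choosing, so nothing is read from this gap. The lowest counts came from glucose replicate 3 and reed canary grass replicate 1, with 106 each, and cellobiose replicate 2, with 109. Cellobiose replicate 3, which stood apart over all transcripts, gave 117, and 113 of the 120 members were chosen again without it.

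In TPM without the TMM factors, the members differed in which substrate they peaked on. The highest of the 6 medians was on alfalfa stems in 50 members, on Avicel in 26, on switchgrass in 24, on corn stover in 10, on reed canary grass in 7 and on cellobiose in 3. The lowest was on cellobiose in 42, on reed canary grass in 30, on corn stover in 22, on Avicel in 18, on alfalfa stems in 5 and on switchgrass in 3. Without cellobiose replicate 3, cellobiose was the highest in 6 members and again the lowest in 42. Such counts were not taken over all transcripts, so no peak is read as particular to the core. With TMM scaling in edgeR, the log2 ratio of alfalfa stems to grasses was positive in 48 of 120 members (median -0.13). That direction depended on scaling, as given below. The ratio of highest to lowest median had a median of 1.92, was at most 1.5 in 18 members and was above 2.5 in 21.

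The flattest members were Locus978v1rpkm128.82, with a ratio of 1.18, and Locus2250v1rpkm38.29, with a ratio of 1.27. Locus978v1rpkm128.82 was at 44.9, 71.5 and 36.6 TPM on glucose and 75.3, 51.5 and 49.7 TPM on maltose, and apart from cellobiose replicate 3 its 17 libraries held 112 TPM or more. Locus2250v1rpkm38.29 was at 6.98, 6.36 and 6.08 TPM on glucose and 7.56, 5.85 and 6.80 TPM on maltose, and it was at 15.6, 20.2 and 6.99 TPM on cellobiose. In both, cellobiose replicate 3 lay at the level of glucose and maltose, which the median over 3 libraries does not show.

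The widest members were Locus158v1rpkm1901.62, with a ratio of 2.97, and Locus187v7rpkm0.00_PRE, with 2.95. Locus158v1rpkm1901.62 was at 358, 367 and 586 TPM on glucose and 167, 373 and 291 TPM on maltose. Its grass libraries held 794 to 1609.5 TPM (median 984), below its alfalfa stem libraries at 2659, 2492 and 2440.0 TPM. Its cellobiose libraries, at 1657, 2042 and 1519.9 TPM, overlapped with switchgrass replicate 1, at 1609.5 TPM, and corn stover replicate 2, at 1566 TPM.

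Differences among the carbon sources within each side of the rule were tested with edgeR's quasi-likelihood test over all 14800 transcripts, called at a Benjamini-Hochberg adjusted p under 0.05. The rule did not directly set the direction of these contrasts. It did use the same 6 medians, in TPM without TMM factors, for H and for the limit of 3 on their ratio. The limit restricts how far the medians can differ, and the use of H can affect which way. A lean of the members beside all transcripts is therefore described, and nothing is read from it. The contrasts share libraries: Avicel enters the contrasts with cellobiose and with the grasses, and grass libraries enter 3 of the 5.

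Across the 6 substrates, 77 of the 120 members differed by edgeR (64.2%), against 45.3% of all transcripts tested, and 77 also without cellobiose replicate 3. The members were also more abundant than most transcripts, with a median level of 71.6 TPM against 2.48 TPM over all tested, and the part of abundance in this count was not tested. In all, 37 members were called in none of the 6 tests, among them Locus57v1rpkm3974.36, Locus35v1rpkm4979.72, Locus158v1rpkm1901.62 and Locus187v7rpkm0.00_PRE.

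No member passed the test between maltose and glucose, the sugars on the low side of the rule. With edgeR, 0 of 120 members were called and 12 had an unadjusted p under 0.05, and 0.115% of all transcripts were called, 0.108% higher on maltose and 0.00676% lower. The median log2 fold change of the members was -0.06, against 0.05 over all transcripts. DESeq2 called 2 members, Locus6382v1rpkm7.35 and Locus8842v1rpkm4.01, both higher on maltose, and without maltose replicate 1 edgeR called 2, Locus1931v1rpkm47.43 and Locus8842v1rpkm4.01, again higher. With library size alone edgeR called Locus6382v1rpkm7.35 higher and Locus291v1rpkm818.25 lower on maltose. These names were picked after their values were seen.

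Between Avicel and cellobiose, the insoluble polymer and its soluble disaccharide, the core leaned to Avicel. By edgeR 28 members were called, all 28 higher on Avicel and 0 lower, against 20.5% of all transcripts called, 6.7% higher and 13.8% lower. An unadjusted p under 0.05 was reached by 49 members, and DESeq2 called 37, all higher. The median log2 fold change was 0.49, positive in 107 of 120 members, against a median of -0.05 over all transcripts. The number of edgeR calls ranged from 14 to 40 with 1 library left out, which also leaves fewer samples. It was 18 without Avicel replicate 1, 17 without Avicel replicate 3, 14 without cellobiose replicate 1 and 25 without cellobiose replicate 3. With library size alone as scaling, which moved the median of all transcripts by -0.32, the members' median was 0.17, with 82 positive, and 20 were called, 19 higher and 1 lower.

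Locus2668v1rpkm30.12 had the largest increase on Avicel among the called members. Its TMM-scaled counts per 1000000 (CPM) were 13.9, 8.05 and 18.2 on cellobiose and 43.1, 56.2 and 48.5 on Avicel, with no overlap. The log2 fold change was 1.86 ± 0.44 (SE, edgeR adjusted p = 0.00611), and 2.16 ± 0.51 without cellobiose replicate 3. Locus5848v1rpkm8.57 followed with 26.3, 30.4 and 18.7 CPM on cellobiose and 80.9, 76.6 and 88.6 CPM on Avicel, and here too the groups were apart. It changed by 1.71 ± 0.27 on the log2 scale (edgeR adjusted p = 0.000178), and by 1.54 ± 0.29 without cellobiose replicate 3. Of the 10 highest scores, Locus284v1rpkm843.71 (log2 fold change 1.34 ± 0.27), Locus340v1rpkm665.39 (1.29 ± 0.32), Locus3104v1rpkm23.73 (1.24 ± 0.25), Locus3919v1rpkm16.49 (1.18 ± 0.21) and Locus1833v1rpkm51.26 (0.62 ± 0.21) were also called.

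The grasses and Avicel differed in both directions. By edgeR 33 members were higher on the mean of reed canary grass, switchgrass and corn stover and 12 were lower, 45 in all. Over all transcripts 37.6% were called, 18.5% higher and 19.1% lower, so the share of members called, 37.5%, was near that of all transcripts. The median log2 fold change of the members was 0.21, against 0.01. With library size alone 51 were called, 29 higher and 22 lower. Without Avicel replicate 1 the calls fell to 27 (23 higher, 4 lower) and without Avicel replicate 3 to 24 (20 higher, 4 lower).

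Locus8100v1rpkm4.73 was at 16.7, 6.37 and 14.9 CPM on Avicel and at 23.2 to 64.9 CPM in the 8 grass libraries (median 35.1). All grass libraries were above all Avicel libraries, and the log2 fold change was 1.57 ± 0.29 (edgeR adjusted p = 0.000224). Locus7718v1rpkm5.18 was at 35.6, 32.3 and 32.03 CPM on Avicel and at 53.1 to 151 CPM on the grasses (median 89.8), again without overlap. Its log2 fold change was 1.45 ± 0.24 (edgeR adjusted p = 7.78e-05).

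In the other direction, Locus725v1rpkm209.05 was at 522, 469 and 519 CPM on Avicel and at 158 to 342 CPM on the grasses (median 217). The groups did not overlap, and it fell by 1.10 ± 0.22 on the log2 scale (edgeR adjusted p = 0.000568). Locus29152v1rpkm0.00 was at 511, 327 and 426 CPM on Avicel and at 102 to 319 CPM on the grasses (median 194). It fell by 1.03 ± 0.29 (edgeR adjusted p = 0.00754), a call lost without Avicel replicate 1, where the adjusted p by edgeR was 0.0945 in a range of 0.00197 to 0.0945 over its alternatives.

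Alfalfa stems and the grasses differed in few members. By edgeR 3 were higher and 7 lower on alfalfa stems, 10 in all, where 15.4% of all transcripts were called, 7.34% higher and 8.04% lower. The median log2 fold change was -0.13, against 0.09 over all transcripts. The direction depended on scaling: library size alone, which moved the median of all transcripts by 0.29, gave 31 calls, 27 higher and 4 lower, and a members' median of 0.16. The highest TPM median fell on alfalfa stems in 50 members, a count that uses TPM without the TMM factors. Leaving out alfalfa stems replicate 1 gave 6 calls, replicate 2 gave 5, replicate 3 gave 5, and leaving out Avicel replicate 1 or corn stover replicate 3 gave 6 each.

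Locus1007v1rpkm123.34 was at 286, 231 and 283 CPM on alfalfa stems and at 425 to 752 CPM on the grasses (median 576), with no overlap. It fell by 1.14 ± 0.22 on the log2 scale (edgeR adjusted p = 0.00120). Locus2640v1rpkm30.81 was at 41.7, 22.96 and 38.9 CPM against 45.5 to 164 CPM (median 76.2), and it fell by 1.21 ± 0.32 (edgeR adjusted p = 0.0122). This call was lost without alfalfa stems replicate 2, with an edgeR adjusted p of 0.0761 in a range of 0.00175 to 0.0761.

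Locus619v1rpkm262.24 was at 146, 120.2 and 141 CPM on alfalfa stems and at 20.4 to 127 CPM on the grasses (median 60.1), where switchgrass replicate 2 overlapped. Its log2 fold change was 1.09 ± 0.33 (edgeR adjusted p = 0.0276, lost in 9 of 29 alternatives, up to 0.106). Locus29152v1rpkm0.00 was at 397, 358 and 385 CPM against the same 102 to 319 CPM, and the log2 fold change was 0.88 ± 0.29 (edgeR adjusted p = 0.0436, lost in 15 of 29 alternatives, up to 0.143). It was thus high on Avicel and alfalfa stems and lower on the grasses, and neither group overlapped with the grass libraries. The third member called higher was Locus1112v1rpkm107.66, at 0.55 ± 0.18.

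Corn stover and reed canary grass, both grasses, differed in 5 members, all 5 higher on corn stover and 0 lower, where 1.96% of all transcripts were called by edgeR, 1.17% higher and 0.791% lower. An unadjusted p under 0.05 was reached by 32 members. The members' median log2 fold change was 0.40, positive in 106 of 120, against 0.02 over all transcripts. With library size alone, which moved the median of all transcripts by -0.22, the members' median was 0.19, with 85 positive, and 6 were called. In TPM without the TMM factors, the core's summed share was 4.65% on corn stover and 4.66% on reed canary grass. The summed TPM thus showed no such lean, while the share of read counts was 6.89% on corn stover and 6.08% on reed canary grass. DESeq2 called 11, all higher. Leaving out 1 library of either group left 2 or 3 calls: 2 without any of the corn stover libraries or without reed canary grass replicate 2 or 3, and 3 without reed canary grass replicate 1.

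Locus1195v1rpkm96.36 had the largest change, from 116, 60.5 and 68.9 CPM on reed canary grass to 300.2, 226 and 185 CPM on corn stover. The groups did not overlap, and the log2 fold change was 1.54 ± 0.24 (edgeR adjusted p = 0.00280). Locus7126v1rpkm6.07 was at 55.6, 64.1 and 63.5 CPM on reed canary grass and at 146, 163 and 132 CPM on corn stover, and the log2 fold change was 1.27 ± 0.24 (edgeR adjusted p = 0.00873). Its call was lost without corn stover replicate 2 (0.0725) and without reed canary grass replicate 1 (0.0548), both edgeR adjusted p-values from a range of 0.000127 to 0.0725. The other called members, named after their values were seen, were Locus3104v1rpkm23.73, Locus3098v1rpkm23.77 and Locus4020v1rpkm15.89.

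**Figure D4:**
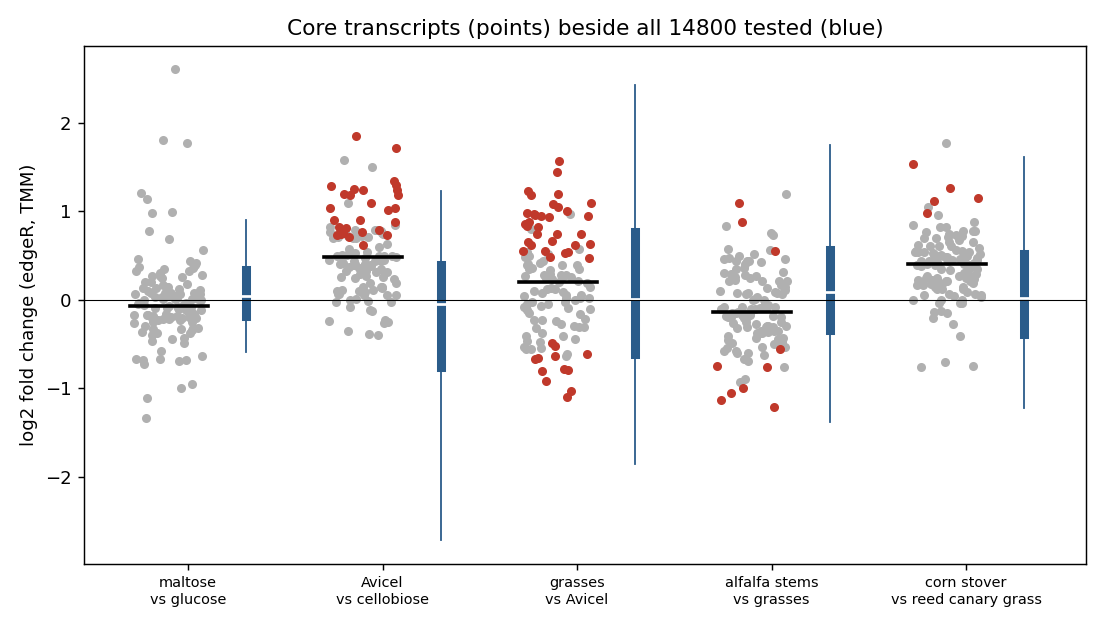
Log2 fold change by edgeR with TMM scaling (vertical axis) in the 5 contrasts, with 1 point per core transcript, red where the adjusted p was under 0.05, and a black line at the members' median. The blue bars give all 14800 transcripts tested, thick for the middle 50% and thin from the 5th to the 95th percentile. The members lie mostly above 0 for Avicel against cellobiose (median 0.49) and corn stover against reed canary grass (0.40), and around 0 for maltose against glucose (-0.06).

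Of what the rule did not use, transcript length could be read from the files, since counts divided by TPM are proportional to effective length. Relative to the median of tested transcripts, the members' median length was 1.01, and 16 of 120 members (13.3%) were under 0.25, against 6.19% of the tested transcripts and 14.8% of those with H of at least 5 TPM. In 15 of these 16 short members the libraries of glucose and maltose and those of the 6 substrates overlapped, against 25 of the other 104. Of the 3474 transcripts with H of at least 5 TPM, 4.15% had the libraries of the 6 substrates all above those of glucose and maltose. That share was not taken by length, and the choice of members fixes this contrast, so nothing is read from these counts. The short member that did not overlap was Locus57v1rpkm3974.36.

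In 6 members at least 1 glucose or maltose library had a count of 0, and all 6 had fewer than 1000 counts over the 23 libraries. Their relative lengths ran from 0.0154 to 0.0270, so that few reads made a high TPM. Locus27515v1rpkm0.00, ranked 11 by score, had 217 counts in all and at most 19.01 in 1 library, yet a mean level of 72.1 TPM. The position of such members in the core rests on few reads. Locus3113v1rpkm23.63, with a relative length of 0.98, also had a count of 0, in reed canary grass replicate 1 and corn stover replicate 1.

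Many members shared reads with other transcripts. In 53 of the 120 (44.2%) the estimated counts were not whole in over 50% of the libraries, as happens when reads are divided among similar transcripts, against 17.05% of all tested. The percentage of libraries with counts not whole had an upper quartile of 95.7% in the members. It was also 95.7% among transcripts with H of at least 5 TPM, and 8.70% over all tested. High values are thus not particular to the core. In 59 members the counts were whole in every library. Among the named members, Locus340v1rpkm665.39, Locus3104v1rpkm23.73 and Locus1112v1rpkm107.66 had whole counts throughout, while Locus284v1rpkm843.71, Locus2809v1rpkm27.90 and Locus725v1rpkm209.05 did not and are less certain. The same holds for all of the 5 most abundant members, whose counts were not whole in 95.7% or 100% of libraries, and Locus29152v1rpkm0.00 and Locus610v1rpkm268.86 were also short, with relative lengths of 0.0296 and 0.0274.

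The 120 members came from 115 loci, 5 of which gave 2 versions each, and 23 members lay in a locus with more than 1 version (19.2%, against 15.1% of tested transcripts). These loci held 22 further versions outside the core, 18 of which passed the filter on low counts and 10 of those had a score above 0. At locus 187 the versions went apart: version 7 had the score of 1.82 given above, while Locus187v1rpkm1607.33 had an H of 291 TPM and an L of 1850.4 TPM, a score of -2.66. At locus 183, versions 3 and 4 were members, while Locus183v1rpkm1641.58 had a score of -1.004. Reads shared between versions can be moved from one to the other by the estimation, so these differences are uncertain.

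**Figure D5:**
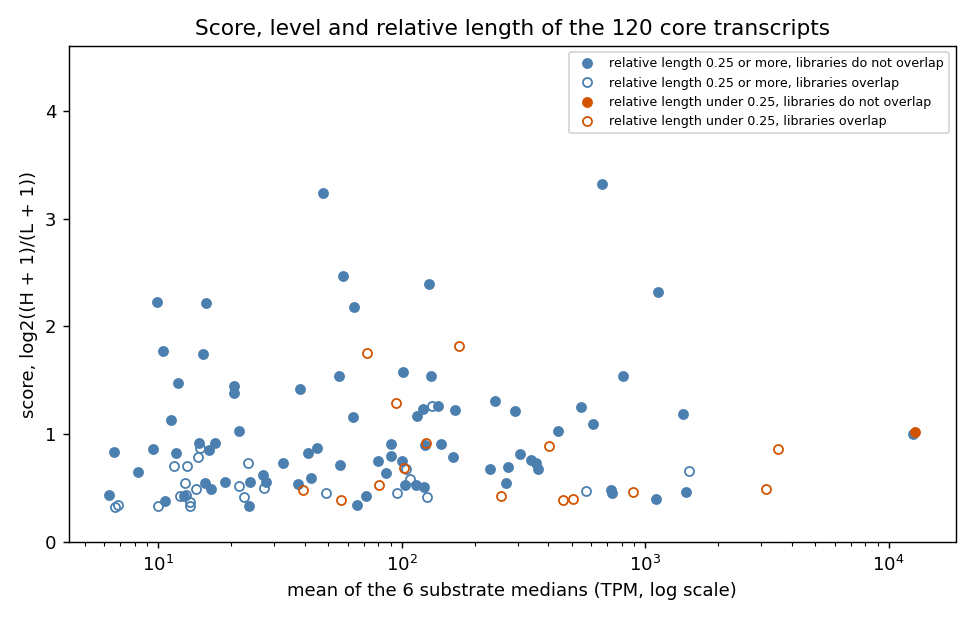
Score (vertical axis) against the mean of the 6 substrate medians in TPM (horizontal log axis) for the 120 core transcripts. Orange points are the 16 members with a relative length under 0.25, and open points are the 40 members whose libraries overlap. Of the orange points 15 are open, against 25 of the 104 blue ones. The choice of members fixes the contrast behind the open points, so nothing is read from these counts.

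The edges of the core were not sharp. The lowest-scoring members were Locus3975v1rpkm16.17, with H of 8.74 TPM and L of 6.73 TPM, and Locus6727v1rpkm6.71, with 5.05 and 3.81 TPM, both at a score of 0.33. The next in rank, Locus218v1rpkm1250.66 with 658 and 523 TPM and Locus4898v1rpkm11.67 with 7.22 and 5.55 TPM, also had scores of 0.33. Just past the limit on range were Locus884v1rpkm147.48, with a ratio of 3.05 and a score of 2.02, and Locus5701v1rpkm8.97, with 3.07 and 0.70. The limit on range kept out 69 of the 189 transcripts with H of at least 5 TPM and a score as high as that of the members.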

How the data were processed

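Expected counts and TPM per transcript were deposited by the authors; RSEM is named in the submitters' processing notes, and the sources used here do not give the aligner or the annotation. Expected counts are reads assigned by estimation, so 10.2% of values are not whole. TPM values as deposited chose the members. The members and lists were chosen with earlier results of these data known. Expected counts were rounded and tested with edgeR 4.0.16 in R 4.3.3 (filterByExpr with a minimum count of 10 and a total of 15, TMM factors of 0.636 to 1.43, robust quasi-likelihood fit over all 23 libraries with 1 mean per carbon source, biological coefficient of variation 0.294). Benjamini-Hochberg adjustment ran over 14800 transcripts holding 99.8% of counts. The test was tried on simulated data. DESeq2 1.42.0 was an alternative. Figures used matplotlib 3.10.9. The named transcripts are the 10 highest scores, the 5 most abundant, the 2 lowest scores, 2 widest and 2 narrowest ranges with the 2 nearest outside each limit, and the 2 strongest called members in each direction of each contrast. Replicate numbers recur between carbon sources, but no label says that a number marks a shared culture, and the deviations of same-numbered libraries did not correlate in every pair (-0.40 to 0.45, median 0.04, against a median of -0.01 for different numbers), so no block was used. Gene lists could not be matched because no file names the transcripts, and the A. robustus tables, with 17127 transcripts, were not used beyond their count.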

Additional observations from a re-analysis of the deposited data

How the results depend on the processing

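The fold changes of members named in the contrasts were each refitted in 29 alternatives. In 320 of these refits the direction and the side of the threshold were kept, and in 28 only the direction. Of the 28, 15 were refits of Locus29152v1rpkm0.00 and 9 of Locus619v1rpkm262.24, both for alfalfa stems against grasses. All values here are counts of members called by edgeR unless another tool is named. For maltose against glucose, 0 became 2 with library size alone, 2 with DESeq2 and up to 2 with 1 library left out. For Avicel against cellobiose, 28 ranged from 14 to 40 with 1 library left out, and for grasses against Avicel 45 ranged from 24 to 46. For alfalfa stems against grasses, 10 became 31 with library size alone and 6 with no filter, and ranged from 5 to 15 with 1 library left out. For corn stover against reed canary grass, 5 became 11 with DESeq2 and ranged from 2 to 6 with 1 library left out. Across the 6 substrates, 77 ranged from 63 to 81 with 1 library left out. The cause of these shifts was not tested, except that leaving out a library leaves fewer samples.

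Of the 120 members, 67 were chosen again with a range limit of 2, 65 with no range limit and 106 to 118 with 1 library left out. The separated members numbered 80 to 89 with 1 library left out. The score of Locus4898v1rpkm11.67, just outside the core, became -0.34 without switchgrass replicate 2 and ranged up to 0.41 with 1 library left out. The summed share in read counts in place of TPM, added after seeing the data, is given with the shares.

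With the replicate number as a block, the calls were 0 for maltose against glucose, 32 for Avicel against cellobiose, 45 for grasses against Avicel, 9 for alfalfa stems against grasses, 6 for corn stover against reed canary grass and 80 across the 6 substrates. A correlation over 0.1 was found in 30 of 77 same-numbered pairs of libraries and in 29 of 154 pairs with different numbers. Such correlations were thus more frequent among equal numbers, but pairing was taken as given only where every same-numbered pair passed 0.1.

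Groups of 3 libraries, and 2 on switchgrass, limit the precision, and the members of low count and short length carry the most error.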
